A study of Mus musculus with 21 samples.

Results

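The genes *Grm2*, *Grm3*, *Grm4*, *Grm5*, *Grm6*, *Grm7* and *Grm8* encode metabotropic glutamate receptors, and they were followed here across developing spiral ganglion neurons (SGNs), hair cells (HCs) and cochlear glial cells of the mouse. They were taken by symbol, without use of any measured value, and are 7 of the 52550 genes counted. Postnatal SGNs carried mostly receptors of group III: *Grm7* rose 6.97-fold from E15.5 to P1 and was the highest of the 7 in TPM in each of the 12 postnatal SGN libraries, *Grm8* was present at every age, and in HCs the highest was *Grm2*.

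Metabotropic glutamate receptors are G protein-coupled receptors that sense glutamate and change excitability or transmitter release over longer times than glutamate-gated channels. Group I, to which *Grm5* belongs, acts through Gq proteins and phospholipase C, while group II (*Grm2*, *Grm3*) and group III (*Grm4*, *Grm6*, *Grm7*, *Grm8*) act through Gi/o proteins, which lower cyclic AMP made by adenylyl cyclases. Receptors of group III often sit at presynaptic terminals, where they reduce glutamate release, and SGNs both receive glutamate from HCs and release it in the cochlear nucleus.

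The study followed SGN differentiation and used the other cell types as references. SGNs came from *ShhCre/+; Rosa26-CAG-loxp-stop-loxp-tdTomato/+* mice, in which Cre expressed from *Shh* marks the neurons, from E15.5 through P1, P8 and P14 to P30. HCs came from *Atoh1-CreER+* mice with the same reporter allele, given tamoxifen at P0 and P1 and collected at P12, and pooled cochlear and vestibular HCs. Glial cells came at P8 from *vGlut3-iCreER/+* mice with that reporter, given tamoxifen at P2 and P3, and were picked from the SGN area. All groups were of the C57BL/6 strain, carried the tdTomato reporter and had 3 replicates, for 21 libraries. A library pooled between 69 and 195 SGNs, between 86 and 125 glial cells or 1200 HCs, so values are means over cells and SGN subtypes were not separated. The labels describe picking of HCs by hand, where the study's methods describe sorting. Since the tissue is pooled, fewer cells that express a gene and less RNA per cell cannot be told apart. HCs and glial cells were collected at 1 age each, so cell type and age cannot be fully told apart in comparisons with them. Nothing in the labels says whether replicates came from separate animals, so p-values measure the spread between these libraries only.

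Libraries held between 10368240 and 37287489 counts on genes. TPM is the count per gene length, scaled to the same total in each library, and is used for levels and for comparisons between genes. CPM is the count scaled by the total of the library, without length, and is the scale of the tests. A gene with no counts could still hold up to 3, which is between 0.0805 and 0.289 CPM depending on the library, and this covers counting error only. The cell types carried their markers: 8 SGN markers (such as *Tubb3* and *Slc17a6*) summed to between 716 and 7780 TPM in SGN libraries, 8 HC markers (such as *Otof*) to between 5130 and 6200 TPM in HCs, and 7 glial markers to between 7370 and 9990 TPM in glial cells. Markers of other cells were also counted. HC markers summed to between 30.0 and 746 TPM in SGN libraries, with all 8 above the limit of counting except in E15.5 replicate 1 (4 of 8), and glial markers to between 7.1 and 1410 TPM, highest at P8. The sum of 5 connective tissue markers was highest in replicate 1 at each SGN age (28.3, 141, 151, 70.2 and 21 TPM from E15.5 to P30). At E15.5 replicate 2 was close, at 23.1 TPM. The globin gene *Hbb-bs* had 826, 298, 326 and 181 counts in replicate 1 at E15.5, P1, P8 and P30, against 0 at P14 and 0 in SGN replicates 2 and 3. Comparisons of ages are therefore also given without replicate 1 of every SGN age where that changes a call reported here. This fit was not run for comparisons with HCs and glial cells. SGN markers reached 321 TPM in glial replicate 1, against 55.1 and 34.6 TPM in the other glial replicates. In HC libraries they summed to between 264 and 299 TPM, and the part of SGN RNA in HC counts was not tested.

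Positions are from GENCODE M21 on GRCm38. *Grm7* (ENSMUSG00000056755.13) lies at chr6:110645581-111567230 on the plus strand and *Grm8* (ENSMUSG00000024211.15) at chr6:27275119-28135178 on the minus strand, so the genes share a chromosome but not a neighborhood, and each spans most of a megabase. *Grm2* (ENSMUSG00000023192.12) lies at chr9:106643095-106656082 and *Grm3* (ENSMUSG00000003974.6) at chr5:9485541-9725170, both on the minus strand. *Grm4* (ENSMUSG00000063239.16) lies at chr17:27422387-27521403 on the minus strand, *Grm5* (ENSMUSG00000049583.15) at chr7:87584168-88134907 on the plus strand and *Grm6* (ENSMUSG00000000617.14) at chr11:50850685-50866208 on the plus strand. Counts were made over whole genes, so isoforms were not separated. *Grm2*, *Grm6* and *Grm7* share 470, 599 and 130 exon bases with an antisense gene on the opposite strand, and *Grm8* shares 96 with the microRNA gene *Mir592*. Whether the counting used strand is not stated, so reads from these shared bases are uncertain.

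The start regions of *Grm7*, *Grm8* and *Grm2* are shown because these are the members with the highest levels in SGNs and HCs. Each runs 5′ to 3′ on its gene's strand from 250 bases before to 50 bases after a RefSeq start on GRCm38.p6, taking the start nearest to the GENCODE 5′ end. Capitals mark the GC box (GGGCGG, both strands), a site of Sp family factors, and the E-box (CANNTG, which reads the same on both strands), a site of basic helix-loop-helix factors. No listed motif overlaps another in these windows. *Grm7* (chr6:110645348-110645647, plus strand) has 15 CpG dinucleotides, *Grm8* (chr6:28135097-28135396, minus strand) has 33 and *Grm2* (chr9:106656060-106656359, minus strand) has 22, against a median of 7 over the 32851 promoters of this length.
Grm7: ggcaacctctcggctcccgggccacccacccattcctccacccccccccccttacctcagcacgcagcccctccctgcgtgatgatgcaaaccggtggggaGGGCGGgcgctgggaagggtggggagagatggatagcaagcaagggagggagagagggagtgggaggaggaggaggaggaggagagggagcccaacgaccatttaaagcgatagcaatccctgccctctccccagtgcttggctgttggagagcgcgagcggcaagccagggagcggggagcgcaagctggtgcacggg
Grm8: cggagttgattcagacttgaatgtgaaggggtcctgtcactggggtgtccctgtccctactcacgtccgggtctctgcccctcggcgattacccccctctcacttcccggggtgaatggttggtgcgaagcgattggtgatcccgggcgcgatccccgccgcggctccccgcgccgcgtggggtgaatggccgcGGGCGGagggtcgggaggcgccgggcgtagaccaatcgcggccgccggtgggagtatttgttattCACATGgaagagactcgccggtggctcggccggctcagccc
Grm2: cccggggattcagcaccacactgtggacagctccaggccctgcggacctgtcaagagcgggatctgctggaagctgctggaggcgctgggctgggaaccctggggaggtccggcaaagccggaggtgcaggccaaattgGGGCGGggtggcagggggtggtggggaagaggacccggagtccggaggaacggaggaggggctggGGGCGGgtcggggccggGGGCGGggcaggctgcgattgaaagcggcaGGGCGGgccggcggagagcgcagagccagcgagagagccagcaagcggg
The GC box occurs 1 time in *Grm7*, 1 time in *Grm8* and 4 times in *Grm2*, and 35.7% of all these promoters hold it. The E-box occurs 1 time in *Grm8* and 0 times in the windows of *Grm7* and *Grm2*, and 72.3% of all promoters hold it. The TATA box letters (TATAAA, both strands) are in 13.6% of promoters and the cAMP response element (TGACGTCA, which also reads the same on both strands) in 1.79%, and neither is in these 3 windows. A match describes the letters only.

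Levels divided the 7 genes into 2 genes that were counted in every SGN library (*Grm7* and *Grm8*), 1 that was variable (*Grm4*), 1 that was steady only in HCs (*Grm2*), and 3 that stayed near the counting limit apart from single libraries (*Grm3*, *Grm5* and *Grm6*). A gene entered a fit when each replicate of 1 or more groups had a CPM over 1. *Grm4*, *Grm7* and *Grm8* passed among the 15113 genes of the SGN fit. These and *Grm2* passed among the 17531 genes of the fit of all 21 libraries. In that fit *Grm2* passed through the HC libraries alone, and *Grm7* and *Grm8* through SGN libraries alone. The remaining 3 members passed neither filter, and no test is given for them.

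**Figure D1:**
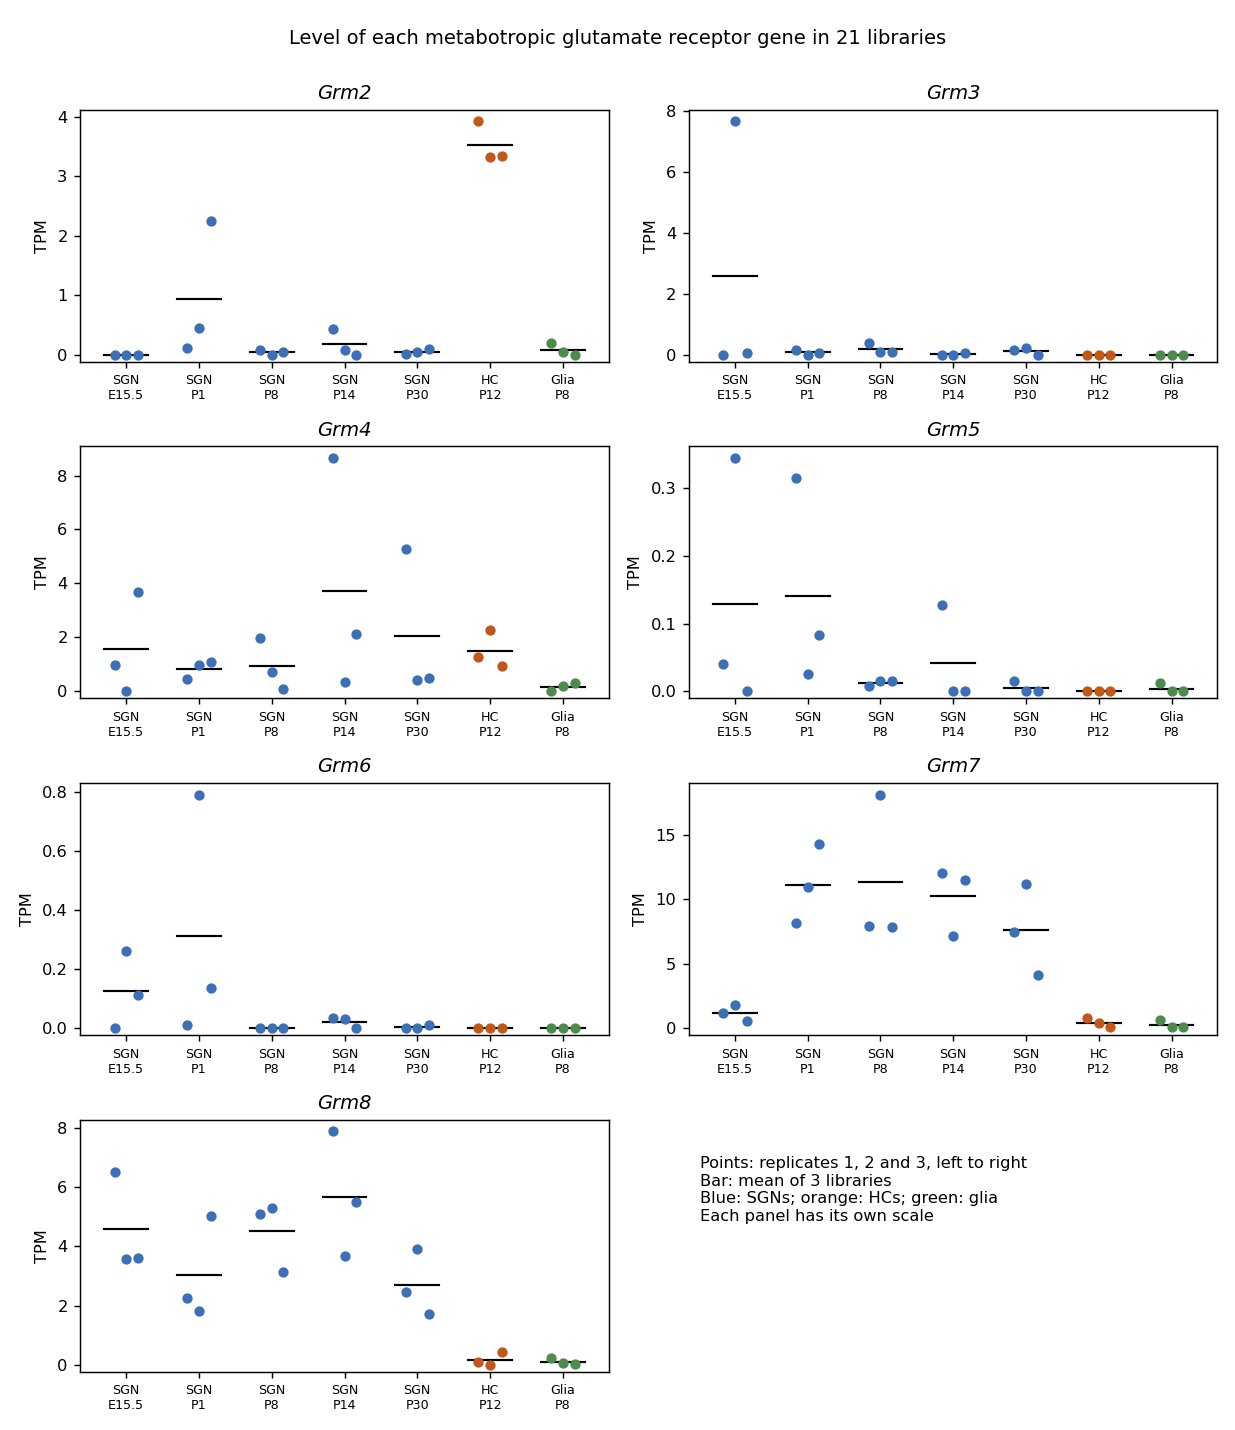
TPM (y axis, own scale in each panel) of the 7 receptor genes in each library of the 7 groups (x axis), with points for replicates 1 to 3 from left to right and a bar at the mean. *Grm7* lies between 4.15 and 18.1 TPM in postnatal SGNs and between 0.58 and 1.78 TPM at E15.5, *Grm2* is highest in HCs, and the *Grm3* mean at E15.5 rests on 1 library.

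*Grm7* encodes a low-affinity receptor known from the active zones of presynaptic terminals. At E15.5 its level was 1.18, 1.78 and 0.58 TPM in replicates 1, 2 and 3, from 67, 238 and 39 counts. At P1 it was 8.12, 10.9 and 14.3 TPM. Every P1 library thus lay above every E15.5 library. At P8 it was 7.92, 18.1 and 7.86 TPM, at P14 it was 12, 7.11 and 11.5 TPM and at P30 it was 7.46, 11.2 and 4.15 TPM. By mean TPM the order was P8, P1, P14, P30, E15.5, HCs and glial cells. The 4 postnatal ages overlapped each other and none overlapped E15.5, which in turn overlapped HCs, as HCs did glial cells. On the count scale, with limma-voom and Benjamini-Hochberg (BH) adjustment, the rise from E15.5 to P1 was 6.97-fold (log2 fold change 2.80 ± 0.55, SE; adjusted p = 0.00478; 3 replicates per age). Among all genes of the fit, 8.26% were called in this comparison, at more than 2-fold and an adjusted p under 0.05, and 2 of the 3 tested members were. From E15.5 to P30 the rise was 7.3-fold (log2 fold change 2.87 ± 0.55; limma-voom, adjusted p = 0.000675), a comparison in which 34.6% of genes and 1 of the 3 tested members were called. The change of *Grm7* after P1 did not pass the test, with a log2 fold change of 0.39 (95% confidence interval -0.19 to 0.98) from P1 to P8, -0.16 (-0.76 to 0.45) from P8 to P14 and -0.17 (-0.82 to 0.48) from P14 to P30. The rise to P1 kept its call without any 1 of the 6 libraries (log2 fold change between 2.08 and 3.53), and without replicate 1 of every SGN age (2.96; limma-voom, adjusted p = 0.0241).

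*Grm8* encodes a high-affinity receptor of the same group. At E15.5 its level was already 6.52, 3.59 and 3.62 TPM in replicates 1, 2 and 3, from 624, 807 and 410 counts. At P1 it was 2.25, 1.82 and 5.04 TPM and at P8 it was 5.11, 5.3 and 3.14 TPM. At P14 it was 7.89, 3.68 and 5.49 TPM and at P30 it was 2.45, 3.93 and 1.73 TPM. By mean TPM the order was P14, E15.5, P8, P1, P30, HCs and glial cells, and only P30 and HCs did not overlap among neighbors in it. On the CPM scale *Grm8* was 48.4, 43.1 and 23.6 at E15.5, 13.2, 11.2 and 21.4 at P1 and 34.5, 21.5 and 27.7 at P8. The order differed on this scale, and the P1 libraries lay below those of both neighbors, though the highest at P1 was 21.4 CPM against 21.5 CPM for the lowest at P8. The fall to P1 passed the test narrowly (log2 fold change -1.17 ± 0.36; limma-voom, BH-adjusted p = 0.0479), as did the rise from P1 to P8 (1.14 ± 0.34; adjusted p = 0.0428). These comparisons share the P1 libraries. From P1 to P8, 7.44% of all genes and 1 of the 3 tested members were called. The fall lost its call without any 1 of 5 of the 6 libraries (all but E15.5 replicate 3), with log2 fold changes between -1.39 and -0.99 and adjusted p between 0.0546 and 0.142. The rise lost it without any 1 of the 3 P1 libraries or P8 replicate 1 or 3, with log2 fold changes between 0.96 and 1.35 and adjusted p between 0.0511 and 0.169. Without replicate 1 of every SGN age neither was called (-0.91, adjusted p = 0.248 by limma-voom, and 0.86, adjusted p = 0.328). From P14 to P30 the log2 fold change was -0.79 (95% confidence interval -1.51 to -0.06; unadjusted p = 0.035; adjusted p = 0.7), and from E15.5 to P30 it was -0.60 (-1.34 to 0.14), so neither passed.

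In TPM, *Grm8* was the higher of these 2 receptors before birth and *Grm7* after it. The ratio of *Grm7* to *Grm8* in TPM was 0.181, 0.496 and 0.16 in E15.5 replicates 1, 2 and 3. At P1 it was 3.6, 5.98 and 2.83, and at P8 it was 1.55, 3.41 and 2.51. At P14 it was 1.53, 1.93 and 2.1, and at P30 it was 3.05, 2.84 and 2.39. *Grm8* was thus the higher of the pair in 3 of 3 embryonic libraries and *Grm7* in 12 of 12 postnatal libraries. A ratio within a library does not depend on the scaling of that library, but it does depend on the gene lengths used for TPM. In CPM, without length, *Grm8* was still the higher in all 3 E15.5 libraries, while it also exceeded *Grm7* in P8 replicate 1 (34.5 against 31.8 CPM) and P14 replicate 1 (32.6 against 29.6 CPM). The mean log2 ratio was -2.04 ± 0.9 at E15.5 and 1.39 ± 0.55 over the postnatal libraries (SD, n = 3 and 12), a difference of 3.43. In CPM these means were -2.79 and 0.64, with the same difference. With P1 as the only later age the difference was 4.02. The ratio was chosen after the values were seen, so it is given as a description with no test.

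**Figure D2:**
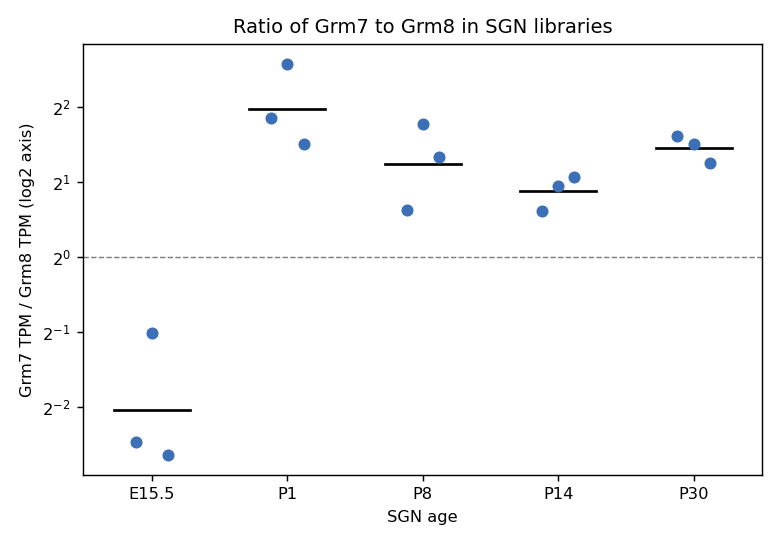
Ratio of *Grm7* to *Grm8* TPM (y axis, log2 scale) in each SGN library by age (x axis), with a bar at the mean of the log2 ratios of 3 libraries and a dashed line at a ratio of 1. The 3 E15.5 libraries lie between 0.16 and 0.496 and the 12 postnatal libraries between 1.53 and 5.98.

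As a share of the summed TPM of the 7 genes, *Grm7* took between 7.19% and 13.5% at E15.5 and between 41.3% and 74.7% in postnatal SGNs. *Grm8* took 48.7% ± 24.4 at E15.5 (SD, n = 3). Its share after birth had a mean of 18% ± 5.12 for P1 libraries, 27.6% ± 5.56 for P8, 29.5% ± 3.0 for P14 and 22.6% ± 5.84 for P30. Group III receptors together made up between 89.6% and 99.8% of this total in each postnatal SGN library. At E15.5 they made up 99.5%, 41.3% and 99.3%, and the low value is the library with *Grm3* counts. The highest of the 7 genes differed among the E15.5 libraries: *Grm8* in replicate 1, *Grm3* in replicate 2 and *Grm4* in replicate 3. The total was 10.1 ± 3.02 TPM at E15.5, between 12.5 and 19.9 TPM as means of the postnatal ages, 5.62 ± 0.723 TPM in HCs and 0.627 ± 0.428 TPM in glial cells. In HCs group III took between 30.6% and 44.5%, the rest being *Grm2*. Shares in glial cells rest on few counts.

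**Figure D3:**
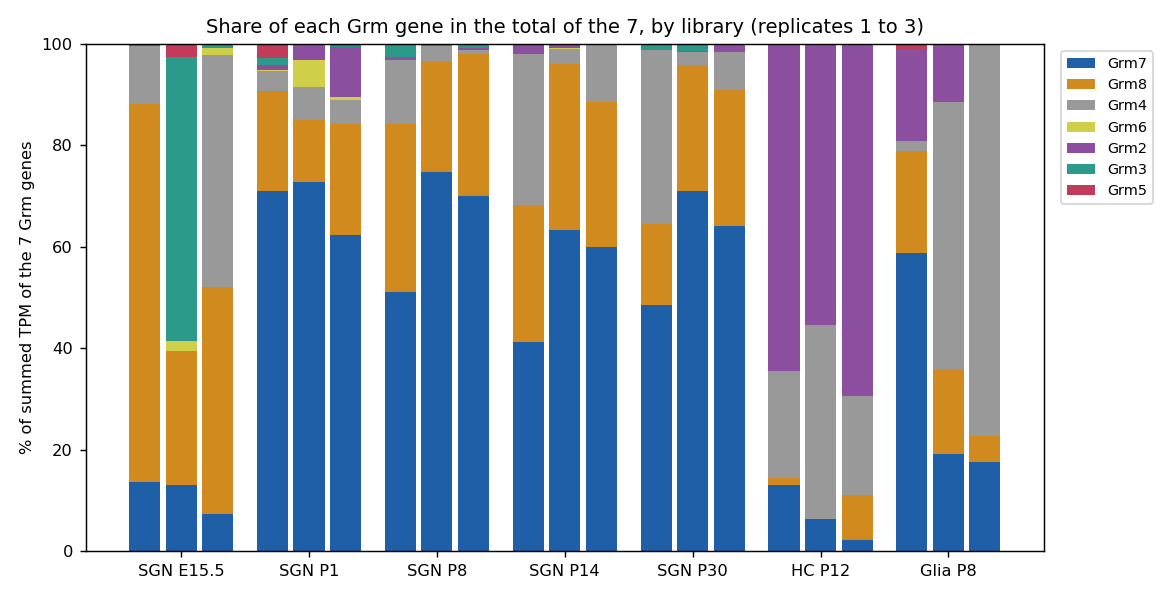
Share of each gene in the summed TPM of the 7 receptor genes (y axis, percent) for each of the 21 libraries (x axis, replicates 1 to 3 within a group). *Grm7* is the largest part of every postnatal SGN bar, *Grm2* of every HC bar, and the 3 E15.5 bars differ from each other.

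*Grm4*, another presynaptic receptor of group III, varied more between replicates than between ages. Its level was 0.992, 0.0 and 3.69 TPM at E15.5, 0.456, 0.986 and 1.08 TPM at P1 and 1.97, 0.725 and 0.0888 TPM at P8. At P14 it was 8.65, 0.338 and 2.14 TPM, from 496, 42 and 88 counts, and at P30 it was 5.28, 0.406 and 0.482 TPM, from 716, 24 and 54 counts. Replicate 1 was the highest at P8, P14 and P30, while all neighboring SGN ages overlapped. HC markers were also highest in replicate 1 at these ages (419 TPM at P8, 746 TPM at P14 and 338 TPM at P30, against no more than 379, 81.1 and 117 TPM in the other replicates), as were glial markers (1410 TPM against 1390 and 775 TPM at P8, 927 TPM against 239 and 244 TPM at P14, and 221 TPM against 62.4 and 7.1 TPM at P30). Connective tissue markers were higher in replicate 1 as well, at 151 TPM against 32.6 and 10.1 TPM, 70.2 TPM against 2.95 and 9.1 TPM and 21 TPM against 0.742 and 0.153 TPM at these ages. Astrocyte markers summed to 0.696, 12.1 and 0.814 TPM in replicate 1 at P8, P14 and P30, against up to 0.959, 2.59 and 0.637 TPM in the other replicates. The part of other cells in the *Grm4* values was not tested. The 3 HC libraries held between 0.936 and 2.29 TPM of *Grm4* and the 3 glial libraries between 0.0232 and 0.319 TPM. No age comparison of *Grm4* passed the test, with log2 fold changes between -0.33 and 2.61 and confidence intervals as wide as -2.82 to 5.27 (E15.5 to P1). The direction was not stable: from E15.5 to P1 the log2 fold change of 1.22 (adjusted p = 0.721) became -1.65 without E15.5 replicate 2, the library with 0 counts.

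From P8 to P14, across the onset of hearing, limma-voom called 0 of the 3 tested members and 0.536% of all genes, and no tested member had an unadjusted p under 0.05. From P14 to P30 it called 0 of 3 members and 0.0596% of genes, with *Grm8* as the only member at an unadjusted p under 0.05. edgeR's quasi-likelihood test and DESeq2 also called 0 members in both.

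*Grm6*, the receptor by which retinal ON bipolar cells sense glutamate, was near the limit of counting. It had 0, 32 and 7 counts at E15.5 and 1, 67 and 7 at P1. Its highest level was 0.79 TPM, in P1 replicate 2. After P1 no SGN library had more than 4 counts, and all HC and glial libraries had 0, so from P8 on *Grm6* was at or near the limit of counting.

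*Grm2*, a receptor of group II that lowers transmitter release at many synapses, was the highest member in HCs. Its level there was 3.92, 3.32 and 3.33 TPM, from 95, 104 and 108 counts. In SGNs it had 0 counts in each E15.5 library and 11, 34 and 103 counts at P1, equal to 0.113, 0.444 and 2.24 TPM. It had between 0 and 10 counts at P8, between 0 and 23 at P14 and between 1 and 10 at P30. Glial libraries had 16, 2 and 0 counts. All HC libraries were thus above all other libraries in TPM, and P1 was the SGN age with the most *Grm2* counts. *Grm2* did not enter the SGN fit. Without the CPM filter its difference between E15.5 and P1 was called (limma-voom, BH-adjusted p = 0.0056), and no fold is given against an age at 0. HC markers also differed between these ages, summing to 30.0, 72.0 and 164 TPM at E15.5 and 437, 515 and 480 TPM at P1. The part of HC RNA in the *Grm2* counts of SGN libraries was not tested.

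*Grm3*, the other gene of group II, had 530 counts in E15.5 replicate 2, equal to 7.65 TPM, but 0 and 2 in the other E15.5 libraries. Postnatal SGN libraries had between 0 and 29 counts, with 0.392 TPM as the highest level, and all HC and glial libraries had 0. The E15.5 mean of 2.57 ± 4.4 TPM (SD, n = 3) therefore rests on 1 library. That library had the lowest sum of SGN markers at E15.5 (716 TPM against 1320 and 1430 TPM), a connective tissue marker sum of 23.1 TPM that lay within the other replicates, and an astrocyte marker sum of 0.454 TPM. The part of other cells in the *Grm3* counts was not tested.

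*Grm5* was near the limit of counting in most libraries. This receptor, which couples to Gq proteins and is abundant at postsynaptic sites of forebrain neurons, had 80 counts in E15.5 replicate 2 and 64 in P1 replicate 1, equal to 0.344 and 0.315 TPM. It had no more than 14 counts in any other SGN library, 0 in HCs and 2, 0 and 0 in glial cells. The E15.5 library with *Grm3* thus also held the most *Grm5* counts and 32 of *Grm6*, but 0 of *Grm4*.

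In comparisons between cell types, called means more than 4-fold and an adjusted p under 0.01 in the fit of all 21 libraries. *Grm7* had 23, 14 and 4 counts in HC libraries, equal to 0.79, 0.372 and 0.103 TPM, and *Grm8* had 4, 0 and 28. SGNs at P14 lay above all of them, with *Grm7* 72-fold higher (log2 fold change 6.17 ± 0.85, limma-voom) and *Grm8* 189-fold higher (7.56 ± 0.98). Both entered this fit only through SGN libraries, where they were high, so these values are a description and no test is given. The size of such folds depends on the few HC counts, and the confidence interval of the log2 value was 4.41 to 7.93 for *Grm7* and 5.52 to 9.60 for *Grm8*. *Grm2* had a log2 fold change of -4.20 (95% confidence interval -6.71 to -1.70). It entered the fit only because it was high in HCs, so this is a description and no test is given for it. *Grm4* did not pass (1.71, 95% confidence interval -1.24 to 4.65). In this comparison 23.1% of all genes were called.

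Glial cells at P8 had 63, 4 and 4 counts of *Grm7* and 36, 6 and 2 of *Grm8*, highest in replicate 1, the glial library with the most SGN marker RNA. SGNs at P8 lay above all 3, with *Grm7* 49.1-fold higher (log2 fold change 5.62 ± 0.84, limma-voom) and *Grm8* 46.3-fold higher (5.53 ± 0.93). As in the comparison with HCs, both entered the fit only through SGN libraries, where they were high. These values are therefore a description and no test is given. Without glial replicate 1 the log2 fold changes of *Grm7* and *Grm8* were 6.69 and 6.36. Across all genes the median log2 fold change in this comparison was 0.22. *Grm4* (1.88, 95% confidence interval -1.90 to 5.65) did not pass. Here 20.9% of genes were called. Between HCs and glial cells, 24.4% of genes were called, with a median log2 fold change of 0.14 over all genes. *Grm4*, *Grm7* and *Grm8* were not called. The log2 fold change of *Grm2* was 4.46 (95% confidence interval 1.88 to 7.04), again given as a description because *Grm2* entered the fit through HCs.

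**Figure D4:**
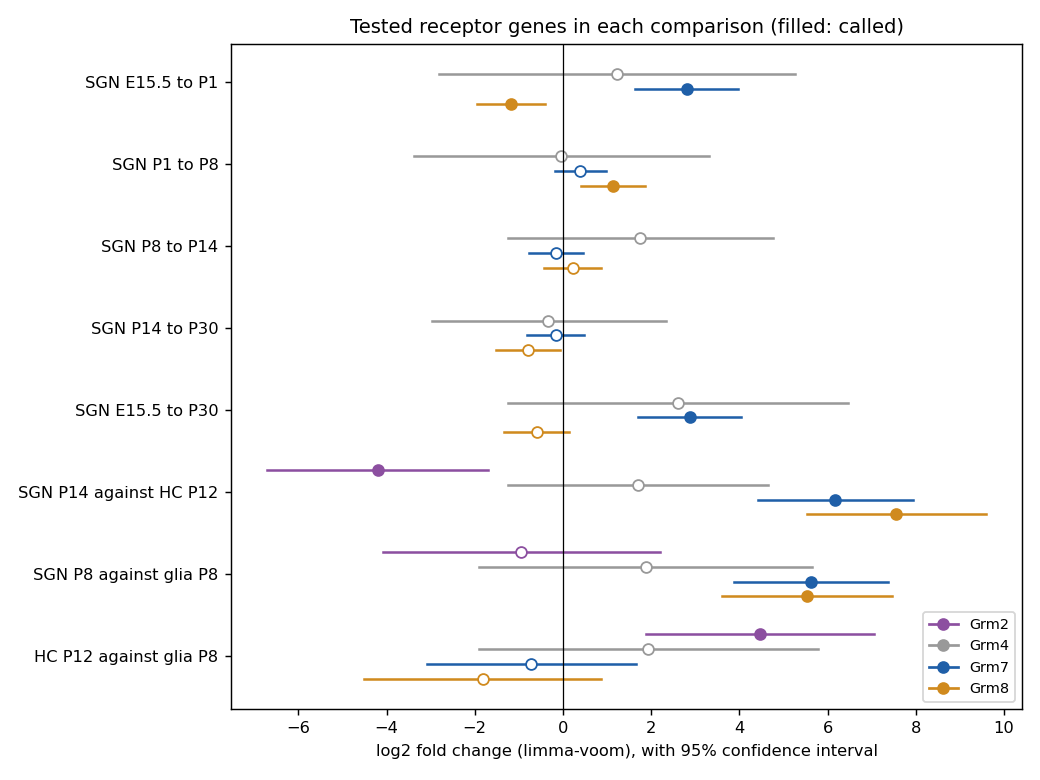
Log2 fold change (x axis) of the tested receptor genes in the 8 comparisons (y axis), with 95% confidence intervals from limma-voom. Points are filled where the gene was called, and positive values are higher at the later age or in the group named first. *Grm2* is a description since it entered the fit through HCs. *Grm7* and *Grm8* entered that fit through SGNs and are descriptions in SGNs against HCs and glial cells. The intervals of *Grm7* and *Grm8* lie between 3.60 and 9.60 for SGNs against HCs and glial cells, and those of *Grm4* cross 0 throughout.

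The receptors act through G proteins, enzymes and binding partners, and 51 such genes were listed by role. From E15.5 to P1, limma-voom called 8 of the 45 that were tested as higher and 1 as lower, where 5.08% of all genes were higher and 3.18% lower, and the median log2 fold change of the 45 was 0.14, against 0.07 for all genes. From P1 to P8 it called 3 as higher and 0 as lower (4.29% and 3.15% of all genes), with a median of -0.18 against -0.01. From P8 to P14 limma-voom and edgeR called 0 and DESeq2 called 1, with 8 at an unadjusted p under 0.05 by limma-voom, where 0.251% of all genes were higher and 0.285% lower. From P14 to P30 all 3 tools called 0, with 6 at an unadjusted p under 0.05, where 0.0331% of all genes were higher and 0.0265% lower. From E15.5 to P30 it called 11 as higher and 7 as lower (18.4% and 16.2% of all genes), with a median of 0.03 against -0.01.

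Of the 46 tested between cell types, 13 were higher and 5 lower in SGNs at P14 than in HCs, where 10.9% of all genes were higher and 12.2% lower, and the median log2 fold change was 1.04 against -0.04 for all genes. In SGNs at P8 against glial cells 12 were higher and 4 lower (13.4% and 7.53% of all genes), with a median of 1.16 against 0.22. In HCs against glial cells 6 were higher and 5 lower (16.2% and 8.18% of all genes).

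The trans-synaptic partners of group III receptors are the membrane proteins Elfn1 and Elfn2, which bind these receptors across the synaptic cleft. *Elfn1* was a gene of HCs, at 223, 258 and 227 TPM, against no more than 6.4 TPM in any SGN library and 3.22 TPM in any glial library. It was lower in SGNs at P14 than in HCs (log2 fold change -5.13 ± 0.65; limma-voom, adjusted p = 2.29e-06). *Elfn2* was 0.0427, 0.672 and 3.58 TPM at E15.5 and 8.36, 14.7 and 11.4 TPM at P1, and stayed between 4.97 and 13.1 TPM from P8 to P30. Like *Grm7*, it was higher in each postnatal SGN library than in each E15.5 library, and its change to P1 was called (3.74 ± 1.04; adjusted p = 0.0293). That call was lost without any 1 E15.5 library or P1 replicate 2, with log2 fold changes between 2.24 and 4.96 and adjusted p between 0.0526 and 0.064, and without replicate 1 of every SGN age (2.43; limma-voom, adjusted p = 0.0712). HCs held 4.21, 7.35 and 9.49 TPM of *Elfn2* and glial cells no more than 0.916 TPM, below SGNs at P8 (5.88 ± 1.23; adjusted p = 0.000677), though not without glial replicate 3 (4.16; adjusted p = 0.0125).

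Among the 5 Gi/o proteins, 1 was called from E15.5 to P1. *Gnai1*, an alpha subunit that inhibits adenylyl cyclases, rose from 26.6 ± 9.32 TPM to 77.3 ± 21.2 TPM (log2 fold change 1.06 ± 0.23; limma-voom, adjusted p = 0.00928) and was 2.46 ± 2.08 TPM in HCs, far below SGNs at P14 (7.24 ± 0.87; adjusted p = 1.25e-06). *Gnao1*, the major Go subunit of neurons, was 41.2 ± 22.3 TPM in SGNs at P14 and 19.0 ± 3.42 TPM in HCs (2.13 ± 0.31; adjusted p = 1.06e-05). That call was lost without P14 replicate 3, where the log2 fold change of 1.98 fell under 4-fold. *Gnaz*, a subunit of the same class, was 20.4 ± 3.85 TPM in SGNs at P8 and 4.59 ± 4.58 TPM in glial cells (2.86 ± 0.76; adjusted p = 0.00468), and this call was lost without glial replicate 3, where the log2 fold change was 1.48, or P8 replicate 1 or 3 (adjusted p between 0.0105 and 0.017).

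Of the 8 adenylyl cyclases, 1 was called from E15.5 to P1. *Adcy1*, which is activated by calcium and calmodulin, rose from 25.4 ± 5.23 TPM to 128.0 ± 39.5 TPM (log2 fold change 1.81 ± 0.17; limma-voom, adjusted p = 1.49e-05) and was also higher in SGNs than in HCs (2.50 ± 0.37; adjusted p = 1.37e-05) and glial cells (4.35 ± 0.58; adjusted p = 6.48e-06). *Adcy8*, likewise activated by calcium, was 58.9 ± 11.9 TPM in HCs against 1.53 ± 1.28 TPM in SGNs at P14 (-4.49 ± 0.57; adjusted p = 2.07e-06). *Adcy5*, a form inhibited by Gi proteins, was higher in SGNs than in HCs (3.54 ± 0.65; adjusted p = 0.000156) and glial cells (3.62 ± 0.69; adjusted p = 0.000281). The same-age glial level of *Adcy7* was above that of SGNs (-2.73 ± 0.76; adjusted p = 0.00625), a call lost without P8 replicate 2 or 3 or glial replicate 2 (adjusted p between 0.0162 and 0.0451).

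Of the 12 genes of the Gq pathway, by which group I receptors act, 11 were tested, and 2 were called from E15.5 to P1, both higher. *Plcb1*, a phospholipase C, rose from 1.07 ± 0.507 TPM to 20.2 ± 5.23 TPM (log2 fold change 3.88 ± 0.46; limma-voom, adjusted p = 0.00012). *Prkcb*, a protein kinase C, rose from 13.2 ± 7.86 TPM to 34.9 ± 8.65 TPM (1.16 ± 0.27; adjusted p = 0.0125), and without E15.5 replicate 2 its log2 fold change of 0.74 no longer reached 2-fold. *Plcb4* was called from P1 to P8 (1.15 ± 0.28; adjusted p = 0.0132), but not without P1 replicate 1 or 3 (adjusted p of 0.0517 and 0.0559). The same transition was called for *Itpr3*, from 1.98 ± 1.32 to 5.18 ± 2.06 TPM (1.82 ± 0.54; adjusted p = 0.0378), but not without P1 replicate 2 or 3 or P8 replicate 1 or 3 (adjusted p between 0.0675 and 0.142). *Itpr3*, an inositol trisphosphate receptor, was 64.0 ± 14.1 TPM in glial cells against 5.18 ± 2.06 TPM in SGNs at P8 (-3.99 ± 0.33; adjusted p = 2.15e-08), and glial markers summed to between 775 and 1410 TPM in those SGN libraries. *Grm5*, a receptor of this pathway, had at most 80 counts in any of these libraries.

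**Figure D5:**
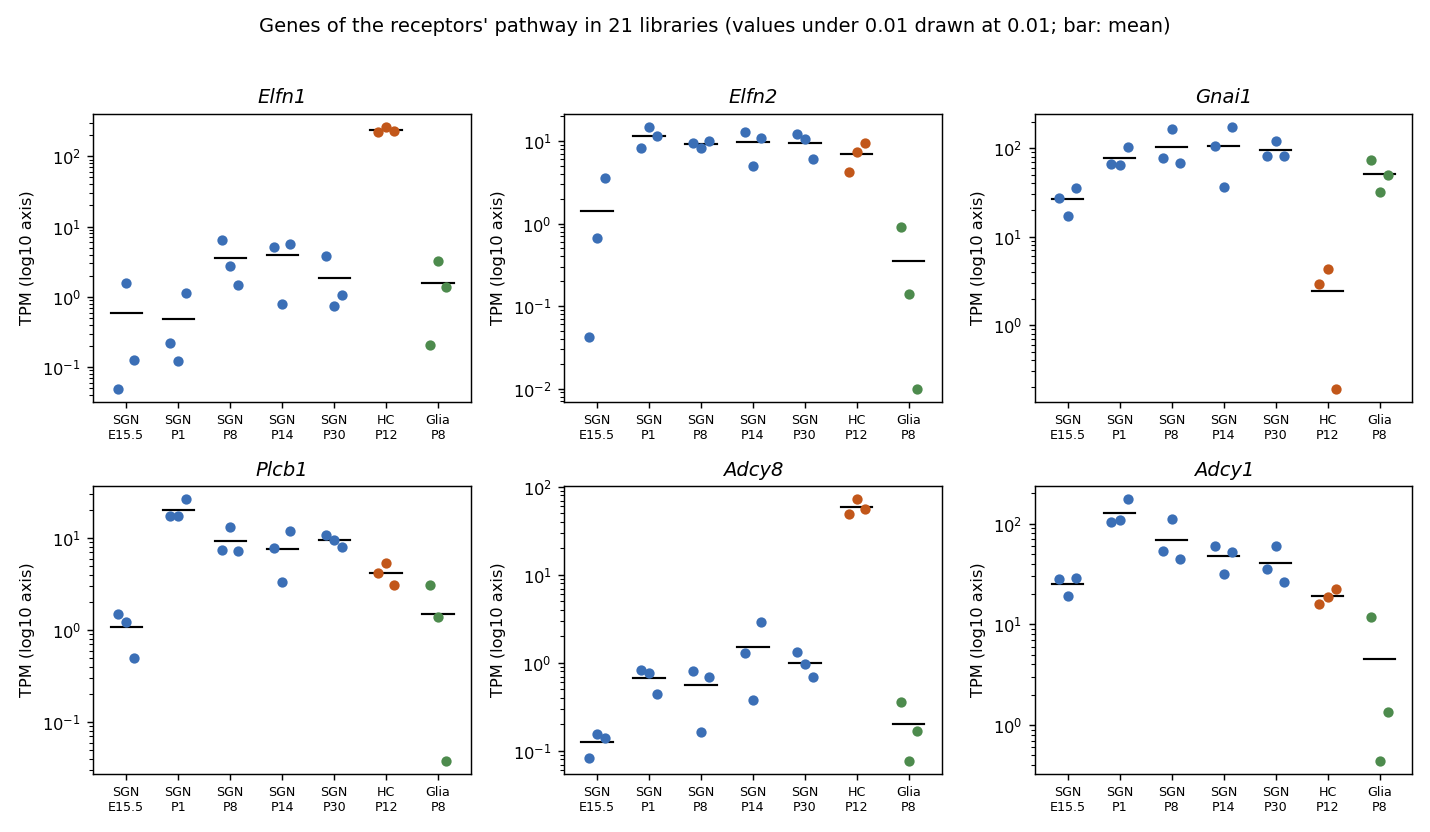
TPM (y axis, log10 scale, values under 0.01 drawn at 0.01) of 6 genes of the receptors' pathway in each library of the 7 groups (x axis), with points for replicates 1 to 3 and a bar at the mean. *Elfn1* and *Adcy8* are highest in HCs, and *Elfn2*, *Gnai1*, *Plcb1* and *Adcy1* are lower at E15.5 than at P1.

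Of the 9 scaffolds and binding proteins, 1 was called higher and 1 lower from E15.5 to P1. *Homer2* was higher (log2 fold change 1.52 ± 0.26; limma-voom, adjusted p = 0.0021) and is named after its value was seen. *Homer3*, like it a scaffold of group I receptors, fell from 7.03 ± 5.5 TPM to 1.63 ± 1.15 TPM (log2 fold change -2.43 ± 0.65; limma-voom, adjusted p = 0.0246), a call lost without P1 replicate 1 or 2 (adjusted p of 0.0519 and 0.101). *Ncdn*, which encodes norbin, a partner of the Grm5 protein, rose from 66.0 ± 3.66 TPM at P1 to 141.0 ± 51.4 TPM at P8 (1.46 ± 0.14; adjusted p = 1.17e-05). *Shank1* was higher in SGNs at P14 than in HCs (4.14 ± 0.60; adjusted p = 1.18e-05) and *Shank2*, a related postsynaptic scaffold, was lower (-3.86 ± 0.38; adjusted p = 8.5e-08), at 121.0 ± 15.1 TPM in HCs. Of the 7 kinases, arrestins and RGS proteins that turn such receptors off, limma-voom called 0 from E15.5 to P1, with 1 at an unadjusted p under 0.05. *Arrb1* (2.38 ± 0.49; adjusted p = 0.000533) was higher in SGNs at P14 than in HCs and *Grk3* (-2.40 ± 0.43; adjusted p = 0.000129) was lower. *Grk2* was also higher there (2.44 ± 0.58; adjusted p = 0.00174), though not without HC replicate 3 (adjusted p = 0.0115).

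The complex that serves the Grm6 protein in retinal bipolar cells was listed with 8 genes, of which only 3 were tested among SGN ages. *Trpm1*, the channel that this receptor controls there, had a mean of no more than 0.0122 TPM at any SGN age, and *Lrit3* of no more than 0.0902 TPM. *Rgs7* (6.50 ± 0.94; adjusted p = 1.11e-05) and *Gnb5* (2.47 ± 0.43; adjusted p = 8.76e-05), which together speed the return of Go proteins to rest, were higher in SGNs at P14 than in HCs by limma-voom. *Gnb5* rose from E15.5 to P1 (1.83 ± 0.42; adjusted p = 0.0116), except without E15.5 replicate 3 (adjusted p = 0.0586). *Rgs11* was called at the same transition (1.30 ± 0.39; adjusted p = 0.0427), but not without any 1 E15.5 library or P1 replicate 2 or 3 (adjusted p between 0.0527 and 0.152), and was 58.3 ± 1.07 TPM in HCs.

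Genes whose levels followed each tested member closely were taken from the 3 with the highest Pearson's r of log2 CPM over the 21 libraries, which share their groups, so r describes the pattern and carries no p. For *Grm7* they included *Kcnip1* (r = 0.975) and *Fgf18* (0.969), and over the 15 SGN libraries alone r was 0.942 and 0.908. For *Grm8* they were *2900011O08Rik* (0.975), *Gm13716* (0.967) and *Cpne4* (0.964), and over SGN libraries alone r was -0.113, 0.696 and -0.462, so the likeness of *2900011O08Rik* and *Cpne4* lay in the contrast of SGNs with the other cells. For *Grm4* they were *Txnrd2* (0.790), *Grin2c* (0.744) and *A730020E08Rik* (0.731). For *Grm2* they included *Gm42982* (0.843) and *Tmprss3* (0.838).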

How the data were processed

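RNA-Seq counts of 21 libraries were analysed. The authors aligned paired-end reads to mm10 (STAR 2.4.0i) and ran featureCounts with the GENCODE vM15 annotation. They deposited unnormalized counts and gene lengths in 1 table. The strand, multimapping and pair settings are not given in the sources used here. Among counts between 1 and 20, a median of 67.9% were even numbers, so a count can be a single read of a pair. Groups came from the sample labels. The members and gene lists were chosen with earlier results of these data known.

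Symbols were matched for 52403 of 52550 genes by Ensembl identifier, and all 51 listed pathway genes were found. CPM, TPM, TMM factors and limma-voom fits were computed here (R 4.3.3, edgeR 4.0.16, limma 3.58.1, DESeq2 1.42.0; Python 3.11.15, numpy 2.4.6, pandas 2.3.3, scipy 1.17.1, matplotlib 3.10.9). The test and thresholds of fold and p follow the study's methods, but the CPM limit of 1 does not do so for ages, where the study used a higher limit, and the numbers of genes that passed here differ from the study's. The calls took 2-fold and an adjusted p of 0.05 between ages in a fit of the 15 SGN libraries, and 4-fold and 0.01 between cell types in a fit of all 21, two-sided, with BH adjustment over all genes and no block. The ages nearest to each reference group were compared with it. For the correlations, 0.5 was the prior count. The fits were tested on simulated counts. From E15.5 to P1, 28% of genes with a simulated log2 fold change of 1.5 were called, and 47% of those with 3. In SGNs at P8 against glial cells, 34% of those with 3 were called. A gene that was not called may still differ. Named genes were the 7 members, up to 4 called genes per role with the largest fold change, and the 3 genes nearest to each tested member, of which some are not reported here; *Trpm1*, *Lrit3*, *Homer2*, *Otof*, *Hbb-bs* and genes sharing exons are named beside these. Alternatives were other scalings, filters, tests and sample sets. Promoter sequences are from RefSeq on GRCm38.p6, which held 5 of the 7 members.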

Additional observations from a re-analysis of the deposited data

How the results depend on the processing

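From E15.5 to P1 and from E15.5 to P30, *Grm7* passed the limits of fold and p under each alternative run. Over the alternatives, libraries left out included, its log2 fold change lay between 5.38 and 6.83 in SGNs against HCs. In SGNs against glial cells it lay between 4.81 and 6.69. Counts of called members in SGNs against HCs and glial cells include *Grm7* and *Grm8*, which entered the fit through SGNs. In comparisons with HCs the counts include *Grm2*, which entered through HCs. Calls of these genes between those groups are descriptions. From E15.5 to P1 the count of called members fell from 2 to 1 with a filter of CPM over 1 in at least 3 libraries, with sample quality weights and with only the 2 groups fitted, lay between 1 and 2 with 1 library left out, and was 1 without replicate 1 of every SGN age. From P1 to P8 it fell from 1 to 0 with library size alone as scaling, without a CPM filter and with edgeR's quasi-likelihood test, lay between 0 and 1 with 1 library left out, and was 0 without replicate 1 of every SGN age. A filter of CPM over 10 in every replicate of an age left the count of called members as it was in the 5 comparisons of ages. From E15.5 to P30 it rose from 1 to 2 with library size alone, when *Grm8* was called at -1.10. In SGNs against glial cells it was 1 with sample quality weights. Between HCs and glial cells the count, which held *Grm2* alone, was 0 with edgeR, DESeq2 and sample quality weights. With 1 library left out it lay between 0 and 1. Without a CPM filter the count from E15.5 to P1 stayed 2, with *Grm8* not called (adjusted p = 0.103) and *Grm2* called. The cause of these changes was not tested.

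The direction of *Grm4* turned from E15.5 to P1 with edgeR (-1.05), DESeq2 (-1.10) and the replicate block (-0.58), and from P1 to P8 with edgeR (0.55), DESeq2 (0.53) and the replicate block (0.95), against -0.04 as reported. With 1 library left out, its log2 fold change lay between -1.65 and 3.14 from E15.5 to P1, -1.13 and 0.82 from P1 to P8, -1.79 and 0.71 from P14 to P30 and -0.25 and 4.54 from E15.5 to P30. Values near 0 also changed sign for *Grm7* from P14 to P30 (-0.26 to 0.08 with 1 library left out) and in HCs against glial cells (-1.38 to 0.34), and for *Grm2* in SGNs against glial cells (-2.00 to 0.44).

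Same-numbered replicates did not deviate together at all 3 numbers in any comparison (correlations of 0.37, 0.22 and 0.08 at P14 and P30), so the numbers were not taken as pairs. Replicate 1 alone correlated at 0.36, 0.31 and 0.37 between neighboring ages from P1 to P30. The replicate block left each count of called members as it was, except in SGNs against HCs, where it was 2 in place of 3, without *Grm2*. It raised the percentage of all genes called from 0.536 to 0.966 from P8 to P14 and from 0.0596 to 0.152 from P14 to P30, and the pathway genes called from P1 to P8 from 3 to 6.

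Over all alternatives, libraries left out included, the percentage of genes called lay between 3 and 11.5 from E15.5 to P1, 3.01 and 11.2 from P1 to P8, 0.0926 and 1.45 from P8 to P14, 0.00662 and 0.728 from P14 to P30, 15.8 and 40.9 from E15.5 to P30, 12.8 and 28.2 against HCs, 10.8 and 24.7 against glial cells and 12.7 and 26.2 between HCs and glial cells. With library size alone as scaling, the share of calls that were higher moved from 61.5% to 46.7% from E15.5 to P1, 57.7% to 35.6% from P1 to P8, 46.9% to 26% from P8 to P14, 53.2% to 29.9% from E15.5 to P30, 47.2% to 27% against HCs and 66.4% to 77.8% between HCs and glial cells. Counts of called pathway genes lay between 5 and 9 from E15.5 to P1, 1 and 7 from P1 to P8 and 9 and 20 against glial cells. Without replicate 1 of every SGN age, *Elfn2* and *Homer3* from E15.5 to P1 and *Plcb4* and *Itpr3* from P1 to P8 also lost their calls. The ratio of *Grm7* to *Grm8*, the counts of pathway genes, the CPM limit of 10 and the fit without replicate 1 were added after the data were seen, and the ratio's difference lay between 3.13 and 3.94 without any 1 E15.5 library. Counts of a few reads limit *Grm3*, *Grm5* and *Grm6* in all groups.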
